A study of Mus musculus with 5 samples.

Results

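The genes described here are the 7 sirtuin genes of the mouse, Sirt1 to Sirt7, and 3 genes of nicotinamide adenine dinucleotide (NAD) synthesis, Nampt, Nmnat1 and Nmnat2. They were picked out by gene symbol, with earlier results of these data known, and make up 10 of the 46078 genes in the expression table of each library. The cells were neural stem and precursor cells of the subventricular zone, taken from C57BL/6 mice whose genotype is labelled No mutation and which are labelled as female and 5 to 8 weeks old. The study's methods give an older age. All cells were kept on plates coated with PDL and received PBS as a sham exposure, and RNA was taken 1 h later (1 h sham, n = 2) or 8 h later (8 h sham, n = 3). The study treated such cells as undifferentiated controls, and its methods define a biological replicate of these cells as an animal. The p-values below therefore measure the spread between these 5 libraries only. No treated library belongs to either group, so the comparison is of time after sham exposure, together with the library differences described below.

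Sirtuins are enzymes that remove acetyl and related groups from lysines of proteins. Each reaction consumes NAD and releases nicotinamide, so that their activity depends on the supply of NAD. Nampt catalyses the rate-limiting step of the salvage pathway, which turns nicotinamide back into nicotinamide mononucleotide, and the Nmnat enzymes complete it to NAD. In neural stem cells Nampt and Sirt1 are known for roles in self-renewal and in the choice between neuronal and glial fates, and transcription of Nampt is known to be driven by the circadian activators Clock and Arntl.

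From 13681 to 13967 genes per library reached 1 TPM (a level scaled for transcript length and to the same total in each library), and count column totals lay between 13988166 and 18572154 counts. Library identifiers fall into 2 number series. Both 1 h libraries and 8 h replicate 14 belong to series 1, and 8 h replicates 13 and 15 to series 2. The sources used here do not say what the series stand for. The libraries of series 1 went against the female label. Their Xist level was at most 0.0611 TPM and 4 Y-linked genes summed to between 137.6 and 180.9 TPM, whereas in series 2 Xist reached 165.3 and 199.7 TPM and the Y-linked genes summed to at most 0.0253 TPM. The 1 h group and part of the 8 h group thus differ in series and in these transcripts as well as in time. Neural precursor markers were present in every library, with all 8 listed genes at a mean of at least 1 TPM, led by Fabp7. Of 5 microglial markers none reached that mean, Aif1 and Tmem119 were listed at 0, and all 5 summed to at most 1.47 TPM. The endothelial list had Cldn5 at 0 and 2 of 5 genes at a mean of at least 1 TPM, led by Flt1 at 11.8 TPM. The ependymal list had Tmem212 at 0 and 1 of 4 at that mean, Foxj1, with group means of 24.6 TPM at 1 h and 15.7 TPM at 8 h. In bulk RNA, fewer cells of a type and less RNA per cell cannot be told apart.

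All 10 genes were detected in all 5 libraries, and their levels spanned a wide range. Sirt2 was highest by TPM, with a mean over the 5 libraries of 100.3 TPM, which placed it at percentile 87.4 of the genes that reached a mean of 1 TPM. Nmnat2 came next by this measure at 41.5 TPM (percentile 68.2), followed by Nampt at 29.0 TPM (percentile 58.7). Sirt5 was lowest, at 6.06 TPM (percentile 22.7).

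**Figure D1:**
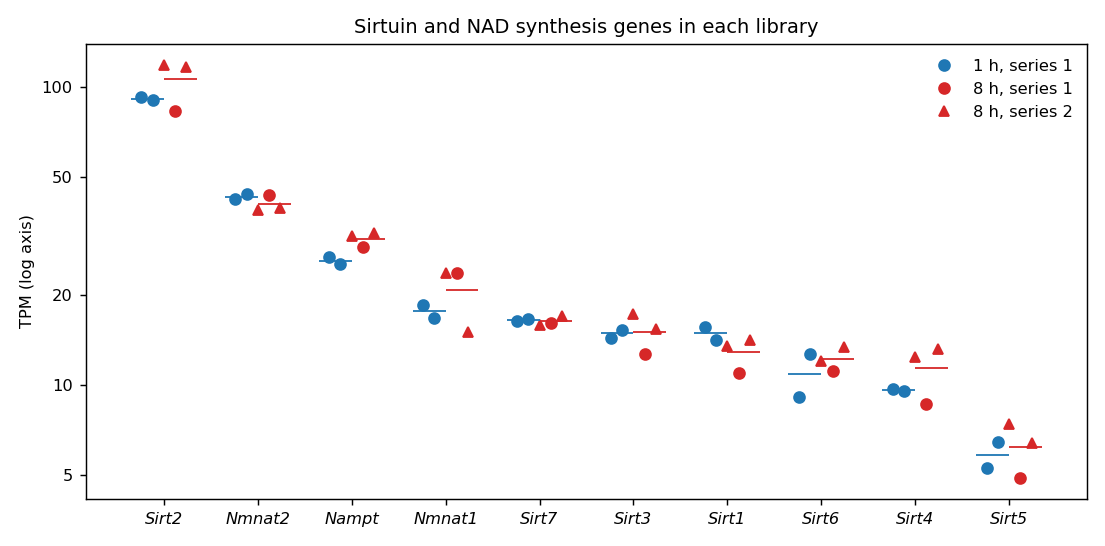
Level of each of the 10 genes in each library in TPM on a log axis, with genes ordered by their mean. Circles are libraries of identifier series 1, triangles those of series 2, blue 1 h and red 8 h, and horizontal lines mark group means. Sirt2 lies between 82.9 and 118.9 TPM in every library, above all other genes, and only Sirt1 and Nampt have groups that do not overlap.

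The order Sirt2, Nmnat2, Nampt, Nmnat1 held in 5 of 5 libraries. The ranges of the first 3 neighbouring pairs did not overlap. Below them, Nmnat1 was above Sirt7, Sirt7 above Sirt3, Sirt3 above Sirt1 and Sirt1 above Sirt6 in 4 of 5 libraries each, with overlapping ranges, so that these neighbours did not differ beyond their spread. Sirt6 was above Sirt4 in 3 of 5 libraries. Sirt4 was above Sirt5 in 5 of 5, with ranges that did not overlap. Summed over the 7 sirtuins the level was 162.9 and 165.2 TPM at 1 h and 197.3, 147.3 and 196.7 TPM at 8 h (replicates 13, 14 and 15). By TPM, Sirt2 made up between 54.8% and 60.3% of that sum in every library.

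The order depended on the measure. The library tables also list mean read coverage per base, which was put on the TPM scale so that both measures are equal where a gene has the highest coverage that its FPKM (fragments scaled for length and library size) allows. Nampt and Sirt5 had the same value on both scales. Coverage as a share of that maximum was 0.371 for Sirt2 and 0.326 for Sirt7, and Sirt1, Sirt3, Sirt4 and Sirt6 lay between 0.44 (Sirt4) and 0.757 (Sirt3). The median over 13822 genes was 0.751, and 33.7% of them were at the maximum. For Nmnat2 the share was 0.0691, a value below which only 2.42% of genes fell.

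Nmnat2 thereby moved from rank 2 of the 10 genes by TPM to rank 10 by coverage. Its coverage level was 2.94 and 2.82 at 1 h and 2.68, 3.02 and 2.85 at 8 h, against TPM values of 42.1, 43.7, 38.8, 43.5 and 39.4. The gap was present in all 5 libraries and was of similar size in each. The annotation gives Nmnat2 6 transcripts of 336 to 4638 bases, and which of them the reads came from was not analysed here. Sirt2 stayed at rank 1 under both measures and Nampt moved from rank 3 to 2. The mean level of Sirt2 was 100.3 TPM but 36.6 by coverage, so its share of the sirtuin sum given above holds for TPM only.

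**Figure D2:**
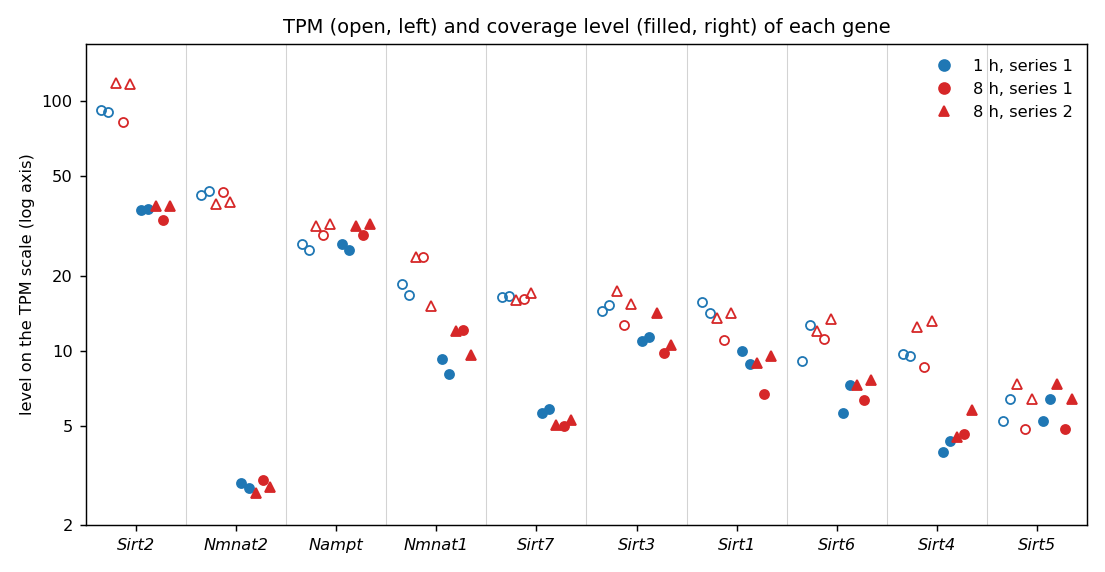
TPM (open symbols, left of each gene's position) and coverage level on the TPM scale (filled symbols, right) of the 10 genes in the 5 libraries, on a log axis. Symbols and colours mark series and time. Nampt and Sirt5 have the same values under both measures, while Nmnat2 drops from 38.8 to 43.7 TPM to a coverage level of 2.68 to 3.02.

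The comparison of 8 h with 1 h asked whether these genes differed with time after the sham exposure. None of the 10 genes passed the test. Limma on log2(TPM + 1) called 0 of 10 at an adjusted p no higher than 0.05 together with a log2 fold change beyond 1 in size, where 6 of all 13870 genes tested (0.0433%) were called, and 0 of 10 had an unadjusted p under 0.05, against 12.3% of all genes. Of the 10 log2 fold changes 7 were positive and 3 negative, with a median of 0.11 beside 0.10 for all genes, and the largest in size was 0.24. Groups did not overlap for 1 gene that was higher at 8 h (Nampt) and 1 that was lower (Sirt1), 2 of 10 in all against 33.1% of all genes. Median-ratio scaling moved the median of all genes from 0.10 to -0.0042, and under it Nampt was at 0.13, Sirt1 at -0.31, and Sirt3 and Sirt5 changed sign (-0.10 and -0.032). The fold changes are on the log2(TPM + 1) scale, which understates differences of low genes.

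Nampt (chromosome 12, 32820335 to 32853369 of GRCm38, plus strand) was measured at 26.8 and 25.4 TPM in 1 h replicates 1 and 2. At 8 h it was measured at 31.5, 29.1 and 32.3 TPM in replicates 13, 14 and 15. All 3 libraries at 8 h were above both at 1 h, by at least 2.3 TPM, and the group means were 26.1 ± 1.01 TPM (SD, n = 2) and 31.0 ± 1.65 TPM (SD, n = 3), a ratio of 1.19. The log2 fold change was 0.24 ± 0.11 (SE), with a 95% interval from -0.024 to 0.50 and an adjusted p of 0.417 in limma. Over all TPM and coverage alternatives it ranged from 0.13 to 0.28 with adjusted p-values from 0.094 to 0.794. By coverage the log2 fold change was also 0.24, with a 95% interval from 0.01 to 0.47 (limma, unadjusted p = 0.0434 and adjusted p = 0.377), and 12.8% of all genes had an unadjusted p under 0.05 there. Values higher at 8 h without overlap were found for 23.7% of all genes by TPM. The small gene Gdap10 overlaps Nampt on the same strand, so that reads from the shared stretch are uncertain.

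Counts gave a smaller log2 fold change for Nampt than TPM did. In CPM, which scales each column to the same total, the 1 h columns had 86.7 and 83.3, and the columns named 8 h replicates 13, 14 and 15 had 93.8, 84.4 and 93.3. The groups overlapped, and the log2 fold change was 0.064 ± 0.10 (SE, with an adjusted p of 0.969 in edgeR). These names are doubtful. Over 7340 genes each 1 h column was close to the TPM table of its own library for 88.7% of genes within 0.1 on the log2 scale, but the column named 8 h replicate 13 matched the table of replicate 14 (78.2%) and the column named replicate 15 that of replicate 13 (78.3%). The column named 8 h replicate 14 matched none closely (39.0% at most). Without that column the groups did not overlap, and the log2 fold change of Nampt in counts was 0.12 (edgeR, adjusted p = 0.782). Relative to the median of all genes in each fit, Nampt stood at 0.14 by TPM and at 0.057 in counts. Without the unmatched column it stood at 0.12 in counts by this measure. A series term, set by the column names, gave -0.046 (edgeR, adjusted p = 0.982).

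Sirt1 (chromosome 10, 63319005 to 63381704, minus strand), the nuclear deacetylase of p53, FOXO factors and the coactivator encoded by Ppargc1a, was measured at 15.7 and 14.2 TPM at 1 h. At 8 h the values were 13.5, 11.0 and 14.1 TPM. All 3 were below both 1 h values, but the gap between the groups was only 0.026 TPM. The means were 14.9 ± 1.09 TPM (SD, n = 2) and 12.9 ± 1.64 TPM (SD, n = 3), and the log2 fold change was -0.21 ± 0.15 (SE), with a 95% interval from -0.58 to 0.17 and an adjusted p of 0.539 in limma. Values lower at 8 h without overlap were found for 9.43% of all genes. By coverage the Sirt1 groups overlapped, with 10 and 8.81 at 1 h and 8.89, 6.72 and 9.51 at 8 h.

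With the identifier series as a term in the fit, the log2 fold change of Sirt1 was -0.41, with a 95% interval from -0.75 to -0.059 (limma, adjusted p = 0.481). In that fit the time difference rests on 8 h replicate 14 beside the 1 h libraries, and 9.06% of all genes had an unadjusted p under 0.05. In the counts Sirt1 was at 41.2 and 37.2 CPM at 1 h and at 32.3, 37.5 and 33.2 CPM in the columns named 8 h replicates 13, 14 and 15, a log2 fold change of -0.22 ± 0.13 (SE, with an adjusted p of 0.966 in edgeR). The direction was the same in all TPM, coverage and count alternatives, with log2 fold changes from -0.43 to -0.10, and adjusted p-values of 0.443 or more in limma, edgeR and DESeq2.

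The 250 bases before the RefSeq start sites of Sirt1 and Nampt are shown because these were the only genes of the 10 whose groups did not overlap by TPM, in opposite directions, and because Nampt is known as a target of E-box binding clock factors. Capitals mark the E-box CACGTG in Sirt1 and the GC box GGGCGG, or its reverse complement, in Nampt. The GC boxes of Sirt1 are left in small letters.
Sirt1 (GRCm38.p6, chr10:63339036-63339285, minus strand): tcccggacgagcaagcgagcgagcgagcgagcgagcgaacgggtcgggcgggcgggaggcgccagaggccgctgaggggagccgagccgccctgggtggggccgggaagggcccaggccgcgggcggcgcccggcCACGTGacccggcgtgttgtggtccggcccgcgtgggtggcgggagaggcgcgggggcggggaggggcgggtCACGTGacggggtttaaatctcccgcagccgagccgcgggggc
Nampt (GRCm38.p6, chr12:32820085-32820334, plus strand): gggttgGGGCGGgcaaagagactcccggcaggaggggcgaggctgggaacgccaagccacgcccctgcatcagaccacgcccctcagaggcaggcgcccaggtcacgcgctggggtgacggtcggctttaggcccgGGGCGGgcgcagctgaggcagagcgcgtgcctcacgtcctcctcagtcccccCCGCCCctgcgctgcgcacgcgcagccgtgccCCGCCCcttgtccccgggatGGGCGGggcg
A set of 4 motifs were searched for on both strands in 32851 RefSeq promoter windows of 300 bases, of which 13 belong to the 10 genes. The E-box CACGTG was in 7.15% of all windows and, among the 10 genes, in Sirt1 alone, at 115 and 43 bases before the start. The GC box GGGCGG was in 35.7% of all windows and in 9 of the 13, which belong to 8 of the 10 genes, and in Nampt it starts 244, 114, 62, 30 and 10 bases before the start site. The NRF1 motif was in 0.971% of all windows and in 1 window of Sirt6, and the cyclic AMP response element TGACGTCA was in 1.79% of all windows and in 0 of the 13. A match describes the letters in the window and nothing more. The RefSeq start of Sirt1 lies inside the longer span that the library tables give for the gene.

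Sirt2 (chromosome 7, 28766735 to 28788665, plus strand) encodes the mainly cytoplasmic sirtuin, which deacetylates tubulin and is abundant in myelinating cells. It was measured at 92.3 and 90.5 TPM at 1 h and at 118.9, 82.9 and 117.1 TPM at 8 h. The 8 h libraries of series 2 were above both 1 h libraries and 8 h replicate 14 was below them, so the groups overlapped. The log2 fold change was 0.20 ± 0.18 (SE, with an adjusted p of 0.598 in limma), and it turned to -0.14 with the series as a term (adjusted p = 0.741). Without 8 h replicate 14 it was 0.36 with an adjusted p of 0.0319, a p that 19.9% of all genes reached there (adjusted p of at most 0.05), and in that subset time and series divide the libraries alike and cannot be told apart.

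The higher TPM of Sirt2 in series 2 was smaller in its coverage, which was 36.8 and 36.9 at 1 h and 38.0, 33.5 and 37.9 at 8 h. Both series 2 libraries were still above all others, and the log2 fold change between 8 h and 1 h was -0.016 (limma, adjusted p = 0.938). Its coverage as a share of the maximum was 0.398 and 0.408 at 1 h and 0.32, 0.404 and 0.324 at 8 h, lower in the series 2 libraries than in all others. In the counts, the column that matched the table of 8 h replicate 13 stood at a log2 ratio of -0.36 to the 1 h mean for Sirt2, while the TPM of that table stood at 0.38 and its coverage at 0.05. If the match holds, counts and TPM differed in direction for this gene, but the match rests on 78.3% of genes and not on the column's name. Nfkbib overlaps Sirt2 on the opposite strand.

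The count columns set Sirt2 apart in another way. Its counts were 196.4 and 196.8 CPM at 1 h and 188.0, 456.7 and 152.8 CPM in the columns named 8 h replicates 13, 14 and 15, so that the column that matched no library table was above all others. The log2 fold change was 0.40 ± 0.45 (SE, with an adjusted p of 0.966 in edgeR) and turned to -0.22 without that column (adjusted p = 0.758). A series term set by the column names, under which that column alone stands for 8 h in series 1, gave 1.18 (edgeR, adjusted p = 0.42), the largest value of any of the 10 genes. In the TPM tables the 8 oligodendrocyte lineage markers, 7 of them at a mean of at least 1 TPM and none at 0 throughout, summed to 1876.1 and 2276.1 TPM at 1 h and to between 1639.1 and 2462.0 TPM at 8 h, and their part in the Sirt2 level was not tested.

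The 3 mitochondrial sirtuins overlapped between the groups by TPM. Sirt3 (chromosome 7, 140863670 to 140882309), the main deacetylase of the mitochondrial matrix, was measured at 14.4 and 15.3 TPM at 1 h and at 17.3, 12.7 and 15.4 TPM at 8 h, a log2 fold change of 0.011 ± 0.16 (SE, with an adjusted p of 0.977 in limma). Sirt4 (chromosome 5, 115478010 to 115484725), a regulator of glutamate dehydrogenase, was measured at 9.66 and 9.51 TPM at 1 h and at 12.4, 8.64 and 13.2 TPM at 8 h, a log2 fold change of 0.21 ± 0.20 (SE, with an adjusted p of 0.619 in limma). Sirt5 (chromosome 13, 43370710 to 43395202), which removes succinyl and related acyl groups, was measured at 5.24 and 6.42 TPM at 1 h and at 7.37, 4.86 and 6.40 TPM at 8 h, a log2 fold change of 0.067 ± 0.20 (SE, with an adjusted p of 0.883 in limma). In each of the 3 genes 8 h replicate 14 had the lowest value of all libraries, and with the series as a term all 3 differences turned negative (-0.21, -0.14 and -0.22). The summed level of the 3 genes was 29.4 and 31.2 TPM at 1 h and 37.0, 26.2 and 35 TPM at 8 h.

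Sirt4 was the only sirtuin higher at 8 h without overlap in the counts, with 8.01 and 9.68 CPM at 1 h and 10.4, 10.6 and 11.6 CPM in the columns named 8 h replicates 13, 14 and 15, where 11.6% of 7590 genes were higher and 18.7% higher or lower without overlap. The log2 fold change was 0.27 ± 0.21 (SE, with an adjusted p of 0.966 in edgeR). No gene of the 8 covered by the count table was called, beside 0 of 7590 genes (0.0%) in all, and 0 of the 8 had an unadjusted p under 0.05 with edgeR or DESeq2, where 199 (2.62%) and 227 of all genes did. Sirt5 and Nmnat2 were not analysed in counts. By coverage the Sirt4 groups did not overlap either, with 3.92 and 4.36 at 1 h and 4.49, 4.64 and 5.77 at 8 h.

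The remaining nuclear sirtuins showed little difference between the groups. Sirt6 (chromosome 10, 81621785 to 81627797), a chromatin deacetylase with a part in DNA repair, was measured at 9.10 and 12.7 TPM at 1 h and at 12, 11.1 and 13.4 TPM at 8 h. The 1 h replicates differed from each other by more than the group means of 10.9 ± 2.53 TPM (SD, n = 2) and 12.2 ± 1.15 TPM (SD, n = 3) did. Sirt7 (chromosome 11, 120618372 to 120625240), which acts in the nucleolus, had the narrowest range of the 10 by TPM, with 16.4 and 16.6 at 1 h and 15.9, 16.1 and 17.0 at 8 h. Its log2 fold change was -0.015 with a 95% interval from -0.29 to 0.26 (limma, adjusted p = 0.952). By coverage the Sirt7 groups did not overlap, with 5.64 and 5.85 at 1 h and 5.05, 5.00 and 5.28 at 8 h, and the difference was -0.14 ± 0.11 on the log2 scale (SE, with an adjusted p of 0.54 in limma). Mafg and Mir6936 overlap Sirt7 on the same strand, which leaves the assignment of shared reads uncertain.

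The enzymes of the last step of NAD synthesis differed from each other in pattern. Nmnat1 (chromosome 4, 149467572 to 149485202), the nuclear form, was measured at 18.6 and 16.8 TPM at 1 h and at 23.8, 23.7 and 15.1 TPM at 8 h. At 8 h, replicates 13 and 14 were above both 1 h libraries and replicate 15 was the lowest of all, which gave a log2 fold change of 0.20 ± 0.22 (SE, with an adjusted p of 0.662 in limma). By coverage all 8 h values of Nmnat1 were above the 1 h values, with 9.29 and 8.08 at 1 h and 12, 12.1 and 9.58 at 8 h, a difference of 0.33 ± 0.15 on the log2 scale (SE, with an adjusted p of 0.41 in limma). In the counts its 1 h columns had 20.2 and 18.0 CPM, and the columns named 8 h replicates 13, 14 and 15 had 26.4, 19.1 and 24.1 CPM. These overlapped only through the column named replicate 14, which matched no library table. Without that column the log2 fold change of Nmnat1 in counts was 0.39 (edgeR, adjusted p = 0.746).

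Nmnat2 (chromosome 1, 152954993 to 153119261), the form found on Golgi and vesicle membranes of neurons, where it maintains axons, had 42.9 ± 1.11 TPM (SD, n = 2) at 1 h and 40.6 ± 2.55 TPM (SD, n = 3) at 8 h. Its log2 fold change was -0.081, with a 95% interval from -0.33 to 0.17 (limma, adjusted p = 0.711). The series 2 libraries, at 38.8 and 39.4 TPM, were below the 3 others. The 8 neuron markers, of which 7 had a mean of at least 1 TPM and none was at 0 throughout, summed to 221.3 and 249.7 TPM in series 2 and to between 288.4 and 480.2 TPM in series 1, and their part in the Nmnat2 level was not tested. Map2 alone held from 173.0 to 405.1 TPM of these sums, and Snap25 was higher in series 2, at 13.0 and 15.8 TPM, than in series 1, at 10.3 to 10.8 TPM.

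**Figure D3:**
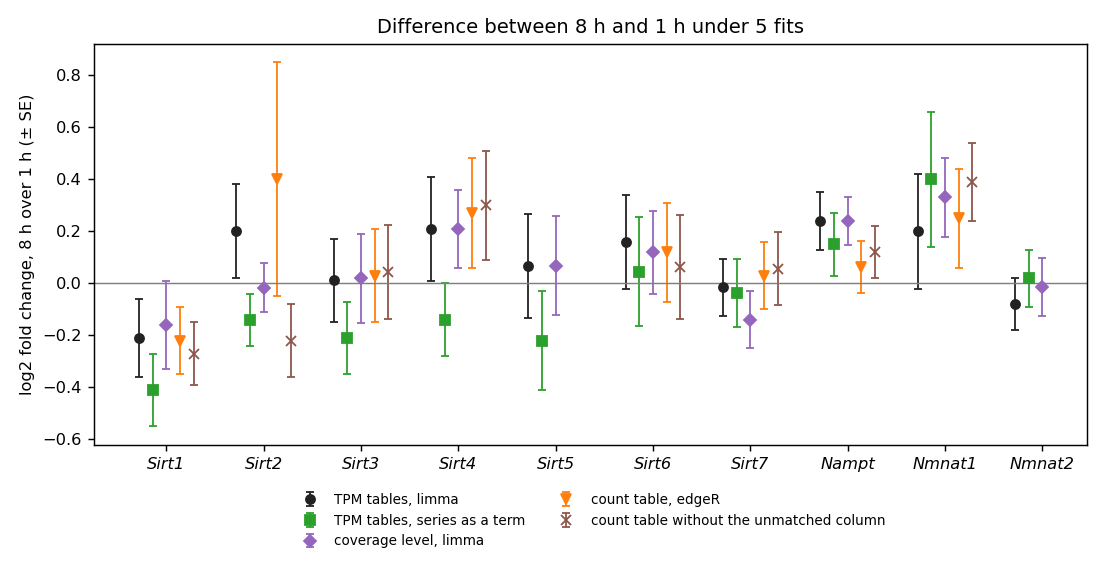
Difference between 8 h and 1 h for the 10 genes as log2 fold change with its standard error, from the TPM tables (limma), the TPM tables with identifier series as a term, coverage level (limma), the count table (edgeR) and the count table without the unmatched column. Sirt1 is below 0 in all 5 fits, Nampt is above 0 in all 5, and Sirt2 ranges from -0.22 to 0.40. Sirt5 and Nmnat2 have no values from counts.

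Identifier series divided some of the 10 genes more clearly than time. Both series 2 libraries were above all series 1 libraries for Sirt2, Sirt3, Sirt4 and Nampt and below all of them for Nmnat2. Among all genes 39.8% were higher and 13.5% lower in both series 2 libraries in this way, so 4 and 1 of 10 are near the share of all genes. The 6 proliferation markers, all at a mean of at least 1 TPM, summed to 1258.3 and 1339.7 TPM in series 2 and to between 654.8 and 718.9 TPM in series 1, and the share of TPM from mitochondrial genes was 6.23% and 6.3% in series 2 and between 10.7% and 11.1% in series 1. The part of these differences in the values of the 5 genes was not tested. By coverage, groups at 1 h and 8 h did not overlap for 4 of the 10 genes (Sirt4, Nampt and Nmnat1 higher, Sirt7 lower), against 34.1% of all genes (24.8% higher and 9.35% lower).

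The profiles most like those of Nampt and Sirt1 were sought among 12192 genes by the root mean square difference between centred log2(TPM + 1) values over the 5 libraries. For Nampt the closest were Nsun4 (0.0017), Zpr1 (0.011) and Fam92a (0.011), and 2058 genes lay within 0.1. Nsun4 was measured at 15.4 and 14.6 TPM at 1 h and at 18.3, 16.8 and 18.6 TPM at 8 h, which has the same order of libraries as Nampt. For Sirt1 the closest were Ints7 (0.018), Dtl (0.027) and Clec16a (0.03), with 219 genes within 0.1. Ints7 had its lowest value in 8 h replicate 14, at 28.9 TPM, as Sirt1 did. More genes thus lay within this cut of Nampt than of Sirt1. The cut is not scaled for how much each gene varies, and the median log2 fold change of all genes was 0.10 by TPM. These numbers therefore do not show how many genes share either profile.

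Nampt sits among other routes to NAD, and most genes of those routes were low or at 0. Of 13 further NAD synthesis genes 4 had a mean of at least 1 TPM. Qprt, which acts on tryptophan-derived quinolinate on the way to NAD, and Ido1, Kmo, Kynu and Haao of the kynurenine pathway upstream of it were listed at 0 TPM in all 5 libraries. Nadsyn1, the glutamine-dependent NAD synthetase, was highest of this list with 6.97 TPM on average, by TPM below Nampt, Nmnat1 and Nmnat2. Coverage levels of this list, by which Nmnat2 was far lower, are not reported here. Nmrk1, the kinase that starts NAD synthesis from nicotinamide riboside, was measured at 3.11 and 3.14 TPM at 1 h and at 4.0, 3.94 and 3.26 TPM at 8 h, without overlap (limma, log2 fold change 0.20 ± 0.16, adjusted p = 0.578). Among all genes 23.7% were higher at 8 h without overlap. Limma called 0 genes of this list, and 0 had an unadjusted p under 0.05, against 12.3% of all genes.

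**Figure D4:**
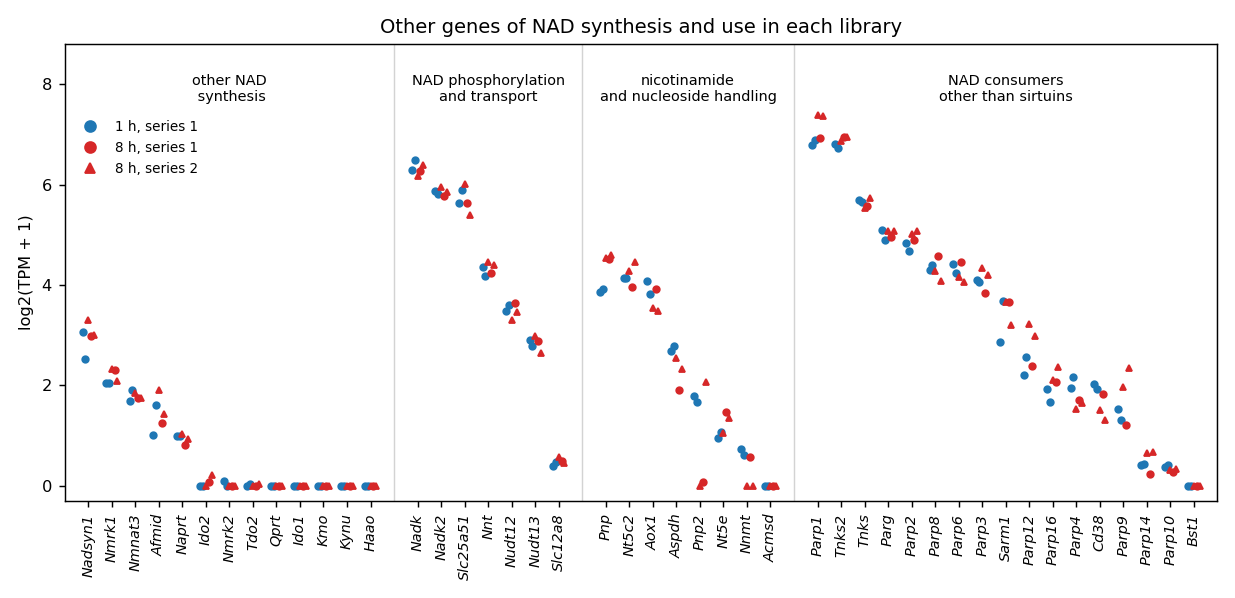
log2(TPM + 1) of the other genes of NAD synthesis, NAD phosphorylation and transport, nicotinamide and nucleoside handling, and NAD consumption in each of the 5 libraries, ordered by mean level within each list. Blue marks 1 h, red 8 h, circles series 1 and triangles series 2. Genes on the zero line such as Qprt, Kmo and Haao are at 0 TPM in all libraries, and Parp1 has the highest mean, with group means of 113.5 TPM at 1 h and 150.6 TPM at 8 h.

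Genes that phosphorylate or move NAD were higher, with 6 of 7 at a mean of at least 1 TPM. Nadk, the cytosolic NAD kinase, led them at 83.1 ± 8.89 TPM (SD, n = 2) at 1 h and 76.5 ± 6.06 TPM (SD, n = 3) at 8 h. Its groups overlapped, as did those of every gene of this list that was tested. Of 8 genes of nicotinamide and nucleoside handling 6 reached a mean of 1 TPM, and Acmsd was at 0 throughout. Pnp, the purine nucleoside phosphorylase that splits nicotinamide riboside, was measured at 13.6 and 14.1 TPM at 1 h and at 22.1, 21.9 and 23.2 TPM at 8 h. Its log2 fold change was 0.66 ± 0.11 (SE), which did not pass (limma, adjusted p = 0.24), and the series term left it at 0.63. In the counts Pnp was also higher at 8 h without overlap, as were 11.6% of all genes there. It had 24.1 and 26.8 CPM at 1 h and 39.7, 32.5 and 37.3 CPM in the 8 h columns. The near-identical paralogue Pnp2 makes the assignment of Pnp reads uncertain, and Pnp2 itself varied from 0 to 3.22 TPM. By TPM, 23.7% of all genes were higher and 9.43% lower at 8 h without overlap. Aspdh was lower at 8 h without overlap (5.66 ± 0.354 against 3.86 ± 1.02 TPM, limma, adjusted p = 0.422). Its counts overlapped, with 6.01 and 5.69 CPM at 1 h and 3.88, 8.5 and 5.01 CPM in the columns named 8 h replicates 13, 14 and 15.

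The sirtuins share NAD with other consumers, of which 14 of 17 had a mean of at least 1 TPM and Bst1 was at 0. Parp1, the poly(ADP-ribose) polymerase that responds to DNA breaks, was above Sirt2 in every library, with 109.9 and 117.0 TPM at 1 h and 167.0, 119.9 and 164.9 TPM at 8 h. Its log2 fold change of 0.39 ± 0.17 (SE, with an adjusted p of 0.406 in limma) became 0.08 with the series as a term. Parp4 and Cd38, an NAD glycohydrolase, were lower at 8 h without overlap, at -0.43 each on the log2 scale (limma, adjusted p = 0.403 and 0.434). The list had 4 genes higher and 2 lower without overlap, beside 23.7% and 9.43% of all genes, and limma called 0 of them.

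Among 17 regulators and targets of sirtuins, all at a mean of at least 1 TPM, 8 were higher at 8 h without overlap and 0 lower, beside 23.7% and 9.43% of all genes. The median log2 fold change of the list was 0.15, beside 0.10 for all genes, and a series term lowered it to 0.04. Limma called 0, and 2 had an unadjusted p under 0.05, against 12.3% of all genes. Acss2, the acetyl-CoA synthetase of cytosol and nucleus, was measured at 55.0 and 59.3 TPM at 1 h and at 124.6, 82.7 and 98.1 TPM at 8 h (log2 fold change 0.80 ± 0.18, limma, adjusted p = 0.285). Its counts were 112.0 and 121.1 CPM at 1 h and 165.1, 75.4 and 227.8 CPM in the columns named 8 h replicates 13, 14 and 15. They overlapped only through the column named replicate 14, which matched no library table. Hic1, a zinc finger repressor, was at 3.09 ± 0.493 TPM (SD, n = 2) at 1 h and 5.54 ± 1.31 TPM (SD, n = 3) at 8 h, with an adjusted p of 0.372 in limma, and its log2 fold change of 0.66 was 0.30 with the series as a term. Ppargc1a was at 21.4 ± 1.88 and 26.8 ± 3.10 TPM (limma, adjusted p = 0.422), and Glud1 was highest of the list with group means of 288.6 and 286.6 TPM.

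The 3 listed clock activators, Arntl, Clock and Npas2, were higher at 8 h without overlap by TPM, as were 23.7% of all genes. Arntl was measured at 29.4 and 24.3 TPM at 1 h and at 51.4, 34.0 and 47.9 TPM at 8 h. Clock was measured at 27.7 and 18.3 TPM at 1 h and at 34.2, 29.8 and 36.6 TPM at 8 h, and Npas2 at 1.64 and 1.43 TPM at 1 h and at 4.38, 2.46 and 4.52 TPM at 8 h. In all 3 genes 8 h replicate 14 was the 8 h library nearest to the 1 h values. Their log2 fold changes of 0.69, 0.55 and 0.89 did not pass (limma, adjusted p = 0.337, 0.381 and 0.334), and with the series as a term they were 0.33, 0.39 and 0.45. In the counts, which do not cover Arntl, the groups overlapped for Clock, with 149.2 and 121.2 CPM at 1 h and 146.0, 129.5 and 142.5 CPM in the 8 h columns. Npas2 had 4.15 and 4.36 CPM at 1 h and 6.6, 4.21 and 10.9 CPM in the columns named 8 h replicates 13, 14 and 15. Its groups overlapped only through the column named replicate 14, which matched no library table.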

How the data were processed

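RNA was sequenced as stranded, poly-A selected libraries. According to the study's methods the authors aligned reads to GRCm38 with STAR in the nf-core/rnaseq workflow, with versions that the sources used here do not give. For each library the authors deposited TPM, FPKM and per-base coverage for every gene, with replicates not pooled, by a tool that the sources used here do not name. The deposited table of whole read counts is not normalized, lists 7599 genes, and has 0 value columns without a sample and 0 rows without a gene name. Its columns were used under their names. The counts behind each value limit its precision, and the intervals cover the spread between libraries.

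TPM was summed per gene identifier (15 to 20 additional rows per table). Limma 3.58.1 with an intensity trend was fitted to log2(TPM + 1) over 13870 genes with a mean of at least 1 TPM, which all 10 genes reached. The count table was tested with edgeR 4.0.16 (quasi-likelihood, TMM, filterByExpr, 7590 genes) in R 4.3.3, with DESeq2 1.42.0 (alpha 0.1) as an alternative. P-values were adjusted over all genes by Benjamini-Hochberg. Calls required an adjusted p no higher than 0.05 together with a log2 fold change beyond 1 in size, the thresholds of the study for other data, and no covariate was used. The coverage level was coverage divided by the constant that links it to FPKM in each library (5.575 to 7.178), scaled as TPM. Fits were tested on simulated data.

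All 10 genes are named, with, from each pathway list, the gene of the highest mean and up to 3 genes with the largest fold change among those whose groups did not overlap, and any gene at 0 throughout. For Nampt and Sirt1 the 3 genes of most similar profile are named. The genes and lists were chosen with earlier results of these data known. Further alternatives were pseudocount 0.1, no filter, median-ratio scaling, other count normalization, the identifier series as a term or series 1 alone, and leaving out each library. Coverage in place of TPM was chosen after the data had been seen. Xist was named because libraries stood apart. The values of 1 gene of the marker lists are not reported here by themselves. Coordinates are those of the library tables and equal GENCODE vM21 for 83.2% of 45143 shared genes and 6 of the 10. Promoter sequences are from RefSeq (GRCm38.p6) and covered all 10 genes. Protein sequences were not analysed here.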

Additional observations from a re-analysis of the deposited data

How the results depend on the processing

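No paired analysis was possible because the 1 h and 8 h groups share no replicate number. None of the 10 genes was called under any alternative, in the TPM tables or in the count table, although Sirt2 had an adjusted p of 0.0319 (limma) without 8 h replicate 14 at a log2 fold change of 0.36. The number of all genes called in the TPM tables was 6, and it was 0 with no filter on low values (2447 genes with an unadjusted p under 0.05), 19 with the identifier series as a term and 18 with coverage in place of TPM and the series as a term. Leaving out each library in turn gave 0 to 568 genes. The 568 arose without 8 h replicate 14, where time and series cannot be told apart, and leaving out 1 h replicate 1, 1 h replicate 2 or 8 h replicate 15 gave 0, with 773, 670 and 856 genes at an unadjusted p under 0.05.

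Log2 fold changes that changed sign were all from genes that did not pass the test, and the cause was not tested. With the series as a term, and likewise with series 1 alone, which takes the spread of the single 8 h library to equal that of the 1 h libraries, they were -0.14 for Sirt2, -0.21 for Sirt3, -0.14 for Sirt4, -0.22 for Sirt5 and 0.019 for Nmnat2. Coverage in place of TPM gave -0.016 for Sirt2, and with the series as a term -0.13 for Sirt2, -0.17 for Sirt3, -0.22 for Sirt5, -0.0086 for Sirt6 and 0.049 for Nmnat2. Median-ratio scaling gave -0.10 for Sirt3 and -0.032 for Sirt5. In counts the series as a term gave -0.0028 for Sirt7, -0.046 for Nampt and -0.034 for Nmnat1, but rests on doubtful column names. Leaving out each library in turn gave ranges in TPM of -0.085 to 0.12 for Sirt3, -0.058 to 0.21 for Sirt5, -0.057 to 0.38 for Sirt6 and -0.044 to 0.0025 for Sirt7, and in counts of -0.22 to 0.68 for Sirt2, -0.053 to 0.11 for Sirt3, -0.062 to 0.33 for Sirt6 and -0.033 to 0.10 for Sirt7. Of the values for single genes, 190 kept their direction or stayed within the replicate spread, 9 moved and 33 changed sign. FPKM kept the rank of all 10 genes, and coverage moved the rank of Sirt1, Sirt3, Sirt5, Sirt6, Sirt7, Nampt and Nmnat2.

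With 2 and 3 libraries the intervals are wide, and a gene that did not pass the test is not shown to be alike in both groups. The 95% interval for Nampt held 0 in the TPM tables as reported and not with coverage in place of TPM (0.01 to 0.47), with no filter on low values (0.064 to 0.41) or without 8 h replicate 14 (0.042 to 0.52), and its adjusted p was at least 0.094 in limma throughout.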

Other observations

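The zinc-dependent deacetylases remove acetyl groups without NAD and offer a comparison of levels with the sirtuins. All 11 had a mean of at least 1 TPM, and together they summed to between 613.2 and 732.4 TPM per library, against 147.3 to 197.3 TPM for the 7 sirtuins. Hdac2 was highest, at 207.8 TPM on average. Hdac3, the catalytic subunit of the NCoR and SMRT corepressor complexes, was measured at 86.6 ± 1.85 TPM (SD, n = 2) at 1 h and 131.0 ± 7.21 TPM (SD, n = 3) at 8 h without overlap, a log2 fold change of 0.59 ± 0.09 (SE) that did not pass the test (limma, adjusted p = 0.24). Its counts did not show a difference of that size, with 173.4 and 179.9 CPM at 1 h and 181.8, 174.6 and 183.0 CPM in the 8 h columns. Hdac1 was higher at 8 h without overlap, at 144.3 ± 3.48 and 170.6 ± 13.9 TPM (limma, adjusted p = 0.41), and Hdac4 lower, at 18.7 ± 0.639 and 16.0 ± 0.184 TPM (limma, adjusted p = 0.443). The list had 2 genes higher and 1 lower without overlap, beside 23.7% and 9.43% of all genes. Limma called 0 of the 11 genes, and 1 had an unadjusted p under 0.05, against 12.3% of all genes.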
